A study of Mus musculus with 5 samples.

Results

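The genes described here are 9 genes of one signalling route of macrophages, namely the receptor *Csf1r*, its ligand *Csf1*, the scaffolds *Gab1*, *Gab2* and *Gab3*, the adaptor *Grb2*, the exchange factor *Sos1*, and the small GTPases *Nras* and *Hras*. They were taken by symbol from the 55487 genes of the RNAseq table, which holds each of the 9 once. This set was chosen from the counts themselves, because *Gab3* and *Nras* differed between the genotypes in opposite directions. The differences between genotypes in these 9 genes are therefore given as a description and without a test.

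The RNAseq compared sorted macrophages of Zeb1WT/ApoeKO mice (2 samples) and Zeb1∆M/ApoeKO mice (3 samples), hereafter Zeb1WT and Zeb1∆M samples. All mice were male, lacked *Apoe*, carried a floxed *Zeb1* with loxP sites around exon 6, and were fed chow to 8 weeks of age and then Western diet for 10 weeks. The Zeb1∆M mice also carried Cre in the *Lyz2* (LysM) gene, which acts in myeloid cells, that is, in monocytes and neutrophils as well as in macrophages. CD45+ F4/80+ cells were sorted from digested aortas (the study's methods add CD11b), cells of 3 mice were mixed, and cDNA was made with a kit for very small amounts of RNA. By the study's methods the libraries were made in triplicate and replicates throughout the study were independent mice or macrophages, and 2 Zeb1WT samples were analysed here. The labels do not say whether the samples of one genotype came from separate pools of mice, so the spread between them may be partly technical. In bulk samples such as these, fewer cells of a type and less RNA per cell cannot be told apart.

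CSF1R is the receptor tyrosine kinase on which most macrophages depend for survival, proliferation and differentiation, and CSF1 and IL34 are its ligands. Once it is phosphorylated, the receptor recruits GRB2, an adaptor that brings SOS proteins to the membrane, where they load RAS with GTP, and that also carries the GAB scaffolds. GAB proteins offer docking sites for the phosphatase SHP2 (encoded by *Ptpn11*) and for PI3 kinase, while active RAS starts the cascade of RAF, MEK and ERK kinases.

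Total counts ranged from 20118545 to 50649912 per sample. A floor of 3 counts, the level below which a gene was treated as not detectable, equals 0.0597 to 0.248 CPM (counts scaled to library size with TMM factors) and covers counting error only. *Zeb1* had 22 counts in Zeb1∆M replicate 1 and 0 in the other four samples, so its counts did not check the genotypes. Zeb1∆M replicate 1 stood apart. It had 16423 genes above 3 counts against 5009 to 6931 in the other samples, but only 870 genes with at least 100 counts against 1714 to 4421. The summed level of 10 macrophage markers, scaled to total counts, was 9583 CPM in this sample and 32282 to 45658 CPM in the others, and *Mertk* was counted only there (22 counts). With TMM factors the gap was smaller, and the sum was 33258 and 33254 CPM in the Zeb1WT samples and 19272, 30043 and 32544 CPM in the Zeb1∆M samples, without overlap between the genotypes. Markers of other cells were also read in the sort. The summed levels of 7 marker lists, scaled to total counts, overlapped between the genotypes for 5 lists, the macrophage list included. The 2 exceptions, which did not overlap with TMM factors either, were 5 endothelial markers (72.3 and 72.1 CPM in the Zeb1WT samples and 2.38, 0.168 and 51.9 CPM in the Zeb1∆M samples, with *Cdh5* and *Tek* at 0 throughout) and 5 fibroblast markers (0.149 and 0 CPM against 1.11, 531 and 2.23 CPM, with *Lum* at 0 throughout). Of 5 smooth muscle markers, 4 were at 0 in every sample. Neutrophil markers summed to 138 to 3592 CPM, T cell markers to 1.09 to 4746 CPM and B cell markers to 3.0 to 1442 CPM, the last with *Cd79a* and *Cd79b* at 0. The part of these differences in the values below was not tested.

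Read along the route, the counts held gaps that differed from sample to sample. Counts were summed over the genes of each step, namely ligand (*Csf1* and *Il34*), receptor, GAB, GRB2, SOS (*Sos1* and *Sos2*), and *Nras* with *Hras*. No sample reached 100 counts at all 6 steps. Zeb1WT replicates 1 and 2 did so at 3 steps each, and Zeb1∆M replicates 1, 2 and 3 at 2, 5 and 3 steps. The ligand step passed 100 counts only in Zeb1∆M replicate 2. The GAB step passed it only in both Zeb1WT samples and the step of *Nras* and *Hras* only in the 3 Zeb1∆M samples, which are the contrasts the genes were selected on.

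**Figure D1:**
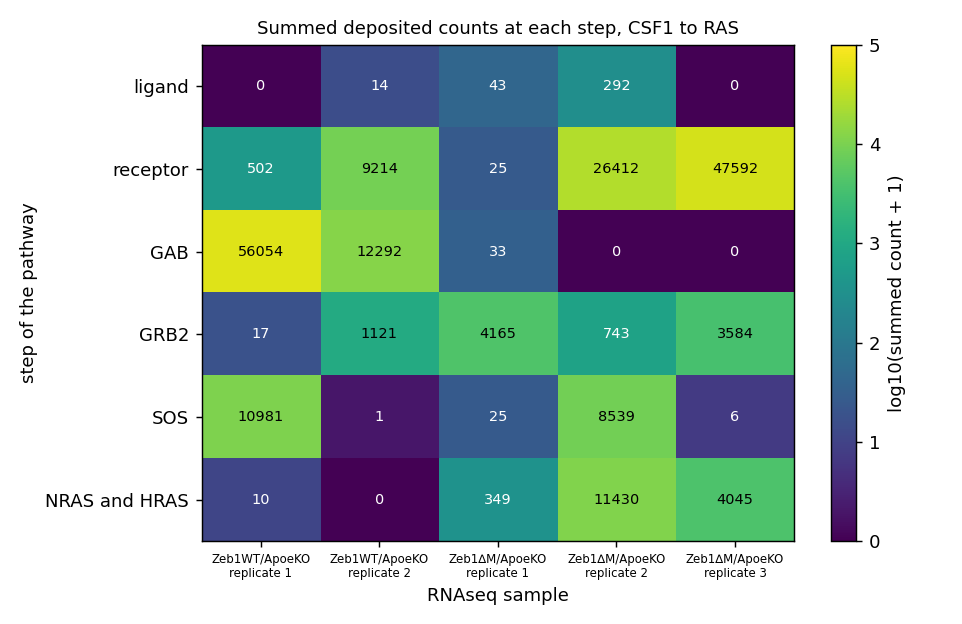
Summed deposited counts (color, log10 scale of count plus 1, with the count printed in each cell) at 6 steps from ligand to *Nras* and *Hras* (rows) in the 5 RNAseq samples (columns). The GAB row is filled in both Zeb1WT samples and holds at most 33 counts in the Zeb1∆M samples, whereas the row of *Nras* and *Hras* holds at most 10 counts in the Zeb1WT samples and 349 to 11430 in the Zeb1∆M samples.

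*Csf1* (chromosome 3 of GRCm38, 107741048 to 107760469) encodes the colony-stimulating factor that binds CSF1R. It had 0 and 14 counts in the Zeb1WT samples and 43, 292 and 0 counts in the Zeb1∆M samples. The lowest Zeb1∆M sample lay at the level of the lowest Zeb1WT sample, so the genotypes overlapped. The Zeb1WT mean was 0.203 ± 0.287 CPM (SD, n = 2), and the Zeb1∆M mean was 3.46 ± 3.41 CPM (SD, n = 3). *Il34*, which encodes the other ligand, had no count in any sample. The floor, 0.0597 to 0.248 CPM, covers counting error only and sets no upper limit on its level. The ligand step thus had low counts in all 5 samples.

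*Csf1r* (chromosome 18, 61100598 to 61132149) had 502 and 9214 counts in the Zeb1WT samples and 25, 26412 and 47592 counts in the Zeb1∆M samples. The lowest and the highest of the 5 values were both Zeb1∆M samples, and the genotypes overlapped. The mean was 143 ± 176 CPM in the Zeb1WT samples (SD, n = 2) and 522 ± 480 CPM in the Zeb1∆M samples (SD, n = 3), each with an SD close to or above the mean. The log2 difference fitted by edgeR (Zeb1∆M minus Zeb1WT) was 1.87, while the pooled SD of log2 CPM between samples was 4.31. The difference turned to −0.14 when upper-quartile factors replaced TMM, and it was 0.62 as the difference of mean log2 CPM. It was 4.86 without Zeb1WT replicate 2, 1.09 without Zeb1WT replicate 1 and 1.11 without Zeb1∆M replicate 3. Per exon length, *Csf1r* stood at 8.39 and 113 TPM (counts per base of exon, scaled to one total in every sample) in the Zeb1WT samples and at 0.308, 271 and 359 TPM in the Zeb1∆M samples. It ranked 494th of the 6821 genes above the floor in Zeb1∆M replicate 3 and 7525th of 16394 in Zeb1∆M replicate 1.

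Macrophage markers were read beside *Csf1r* in the samples where it was lowest. In Zeb1∆M replicate 1, *Cd14* (co-receptor for lipopolysaccharide), *Cd68* (lysosomal glycoprotein) and *Mrc1* (mannose receptor) had 33, 10 and 24 counts, next to 25 counts of *Csf1r*. Of the markers used in the sort, *Itgam* (CD11b) had 0 counts there, *Adgre1* (F4/80) 1068 and *Ptprc* (CD45) 475. *Fcgr1* (Fc gamma receptor I) had 2 counts there, and 0 in Zeb1WT replicate 1 and Zeb1∆M replicate 3. *Lyz2* (lysozyme) and *Cd74* (invariant chain of MHC class II) had 161607 and 70314 counts, which per exon length (8745 and 2982 TPM) were the lowest of the 5 samples. In TMM CPM *Lyz2* was again lowest there (13335), but *Cd74* (5802) lay above Zeb1WT replicate 2 (5214) and Zeb1∆M replicate 2 (3516). In Zeb1WT replicate 1, where *Csf1r* had 502 counts, *Cd14* had 59319 and *Mrc1* 10875 counts, but *Cd68* had 0. *Itgam* was also low in Zeb1∆M replicate 2 (33 counts), where *Csf1r* had 26412 counts. It had 441 and 3074 counts in the Zeb1WT samples and 1988 in Zeb1∆M replicate 3. Whether the content of macrophages set the level of *Csf1r* was not tested. *Csf1r* shares 873 exon bases with *Hmgxb3*, a gene on the opposite strand, and 13.9% of its 75-base stretches (the read length) also occur in that gene. The kit does not mark strand, so that reads in this overlap cannot be told apart. *Hmgxb3* had 7536 counts in Zeb1WT replicate 2 and 0, 57, 5 and 2 counts in Zeb1WT replicate 1 and the Zeb1∆M samples. The pseudogene *Csf1r-ps* had 10 and 29 counts in the Zeb1WT samples and 1, 51 and 0 in the Zeb1∆M samples.

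**Figure D2:**
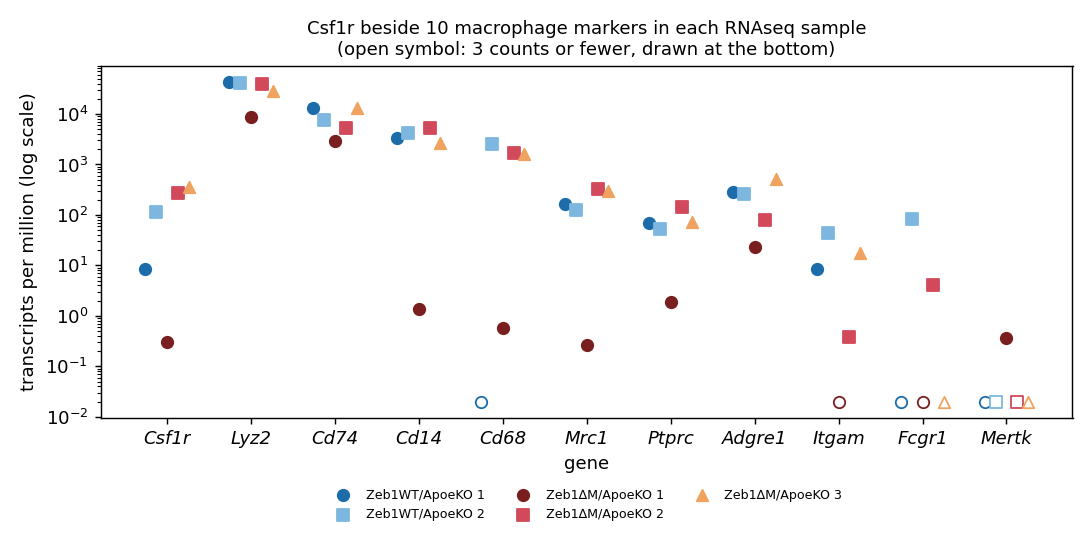
Level per exon length (TPM, log axis) of *Csf1r* and 10 macrophage markers (x axis) in each of the 5 samples, 1 point per sample with no average. *Csf1r* spans 0.308 to 359 TPM, and Zeb1∆M replicate 1 is its lowest point, as it is the lowest filled point of *Lyz2*, *Cd74*, *Cd14*, *Cd68*, *Mrc1*, *Ptprc* and *Adgre1*. Open symbols, drawn at the bottom, mark 3 counts or fewer, and *Mertk* is filled only in Zeb1∆M replicate 1.

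The 3 GAB genes encode scaffolds of one build, with a PH domain at the start and tyrosines that become docking sites, and *Gab3* is expressed mainly in blood cells, macrophages included. *Gab3* (chromosome X, 74966843 to 75085458) had 56054 and 12292 counts in the Zeb1WT samples and 0 in each of the 3 Zeb1∆M samples. Every Zeb1WT sample was above every Zeb1∆M sample. Set against the highest floor of a Zeb1∆M sample, the mean of the Zeb1WT samples (1193 ± 1183 CPM, SD, n = 2) lay 4820-fold higher. The lower of the 2 Zeb1WT samples, 357 CPM, was 1441-fold above that floor. The floor covers counting error only, so these folds are not lower bounds on a difference in expression. A gene can also be lost from 1 sample of a genotype, as *Cd68* with 0 and 44664 counts in the Zeb1WT samples. For *Gab3* the 2 Zeb1WT samples differed as well, at 2030 and 357 CPM. In these 2 samples *Gab3* stood at 1390 and 223 TPM, rank 139 of 6922 and rank 823 of 6052 genes above the floor, and thus above *Csf1r* in both.

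*Gab1* (chromosome 8, 80764438 to 80880519) and *Gab2* (chromosome 7, 97081586 to 97308946) were at 0 in all samples but one. *Gab1* had 25 counts in Zeb1∆M replicate 1 and 0 in the other four samples. *Gab2* had 8 counts in that sample and 0 in the others. They stood at 0.350 and 0.0924 TPM there, and neither passed the filter on low counts. The sum over the GAB family was 56054 and 12292 counts in the Zeb1WT samples, all of *Gab3*, and 33, 0 and 0 counts in the Zeb1∆M samples.

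The first 60 coding bases of *Gab3* and *Gab1* are shown because these genes took different courses, and reads of one can be counted on another only where the letters match. They begin at the start codon and come from the GENCODE transcripts of GRCm38, with capitals in *Gab1* at the 17 bases that differ from *Gab3*. Both lie in exon 1, on the minus strand.
Gab3 (chrX:75084680-75084739): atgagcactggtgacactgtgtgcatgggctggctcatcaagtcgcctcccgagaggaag
Gab1 (chr8:80879544-80879603): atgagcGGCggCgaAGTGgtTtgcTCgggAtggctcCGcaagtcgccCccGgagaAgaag
No 75-base stretch of a *Gab3* transcript occurs in *Gab1* or *Gab2*. *Gab3* shares 1.59% of its stretches with other genes, *Gm6897* and *Gm14758*, whose counts are not given here.

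*Grb2* (chromosome 11, 115644045 to 115708597) and *Csf1r* were the only 2 of the 9 genes above the floor in all 5 samples. *Grb2* had 17 and 1121 counts in the Zeb1WT samples and 4165, 743 and 3584 counts in the Zeb1∆M samples. After normalization these were 0.616 and 32.5 CPM against 344, 17.4 and 71.3 CPM. The lowest Zeb1∆M sample lay below the highest Zeb1WT sample, so the genotypes overlapped. The log2 difference was 3.12 with a pooled SD of 2.88. It was 7.28 without Zeb1WT replicate 2, and 1.35 without Zeb1∆M replicate 1, the sample in which *Grb2* was highest and *Csf1r* lowest. Of the 75-base stretches of *Grb2*, 4.06% also occur in another gene, *Gm12791*, whose counts are not given here.

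*Sos1* (chromosome 17, 80393751 to 80480453) encodes the exchange factor that GRB2 carries to RAS. It had 8537 counts in Zeb1∆M replicate 2, 6 in Zeb1∆M replicate 3 and 0 in the other three samples. Its paralogue *Sos2* had 10981 counts in Zeb1WT replicate 1 and 1, 25, 2 and 0 counts in Zeb1WT replicate 2 and Zeb1∆M replicates 1, 2 and 3. Each of the 2 SOS genes thus rested on a single sample, a different one for each. The SOS step as a whole had 10981 and 1 counts in the Zeb1WT samples and 25, 8539 and 6 counts in the Zeb1∆M samples, with overlap between the genotypes.

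*Nras* (chromosome 3, 103058285 to 103067914) encodes a RAS protein of all tissues. It had 0 counts in both Zeb1WT samples and 334, 11430 and 4045 counts in the Zeb1∆M samples. Every Zeb1∆M sample was above every Zeb1WT sample. Set against the highest floor of a Zeb1WT sample, the mean of the Zeb1∆M samples (125 ± 126 CPM, SD, n = 3) lay 1152-fold higher. The lowest Zeb1∆M sample, 27.6 CPM, was 254-fold above that floor. As for *Gab3*, these folds are not lower bounds on a difference in expression. The 3 samples spread from 4.46 TPM in replicate 1 to 33.1 TPM in replicate 3 and 127 TPM in replicate 2. In replicate 1, 4.46 TPM ranked 707th of 16394 genes above the floor, while 33.1 TPM in replicate 3 ranked 2401st of 6821.

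*Hras* (chromosome 7, 141189105 to 141194005) had 10 and 0 counts in the Zeb1WT samples and 15, 0 and 0 counts in the Zeb1∆M samples. It overlapped between the genotypes. Summed, *Nras* and *Hras* had 0.362 and 0 CPM in the Zeb1WT samples and 28.8, 267 and 80.5 CPM in the Zeb1∆M samples. *Nras* held 334 of 349 of these counts in Zeb1∆M replicate 1 and all of them in replicates 2 and 3.

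RAS proteins are nearly alike over most of their length and differ near their end, so the last 60 coding bases before the stop codon of *Nras* and *Hras* are printed, with the last 4 codons, the box at which the protein is farnesylated, in capitals. They come from GENCODE transcripts of GRCm38 and lie in exon 5 of each, on the plus strand for *Nras* and on the minus strand for *Hras*.
Nras (chr3:103063387-103063446): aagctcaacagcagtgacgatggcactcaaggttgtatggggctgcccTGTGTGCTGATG
Hras (chr7:141191351-141191410): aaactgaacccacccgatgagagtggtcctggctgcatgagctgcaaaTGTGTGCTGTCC
Compared base by base with *Nras*, *Hras* differed at 29 of these 60 bases. Over the whole transcripts, no 75-base stretch of *Nras* or *Hras* occurs in any other gene, and the pseudogene *Nras-ps2* had 0 counts in every sample.

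**Figure D3:**
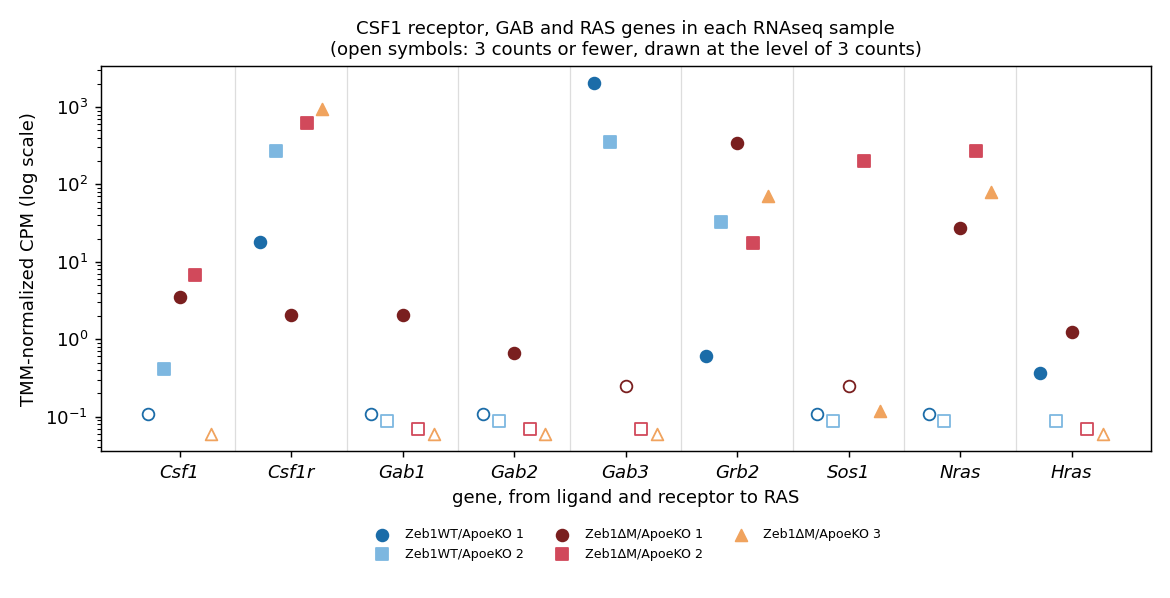
TMM-normalized CPM (log axis) of the 9 genes in each of the 5 samples, 1 point per sample with no average, ordered from ligand to RAS. Open symbols mark 3 counts or fewer and are drawn at the level of 3 counts in that sample. *Gab3* is filled only in the Zeb1WT samples and *Nras* only in the Zeb1∆M samples.

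Per exon length, the order of the 9 genes by their mean over the 5 samples was *Gab3* (323 TPM), *Csf1r* (150), *Grb2* (39.6), *Nras* (32.9), *Sos1* (9.56), *Csf1* (0.809), *Hras* (0.109), *Gab1* (0.0701) and *Gab2* (0.0185). This order was the same with the longest transcript as the length and with TMM CPM per kilobase. The means hide the spread, since the values of neighbours in the order overlapped between samples, for example *Gab3* (0 to 1390 TPM) and *Csf1r* (0.308 to 359 TPM), or *Grb2* (0.563 to 102 TPM) and *Nras* (0 to 127 TPM). By median the highest of the 9 was *Csf1r* with 113 TPM, and *Gab3* had a median of 0.

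The 9 genes were above the floor in 24 of 45 gene and sample pairs. Of the 9 genes, 2 were above it in 1 sample, 3 in 2 samples, 2 in 3 samples and 2 in all 5. Among the 21705 genes of the table with more than 3 counts in any sample, 16423 of which were counted in Zeb1∆M replicate 1, 52% were above it in 1 sample only and 5% in all 5. The same shares were 16.2% and 11.8% for the 68 detected genes of a list of 72 further pathway genes. Zeb1∆M replicate 1 detected 7 of the 9 genes and the other samples 4 or 5.

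**Figure D4:**
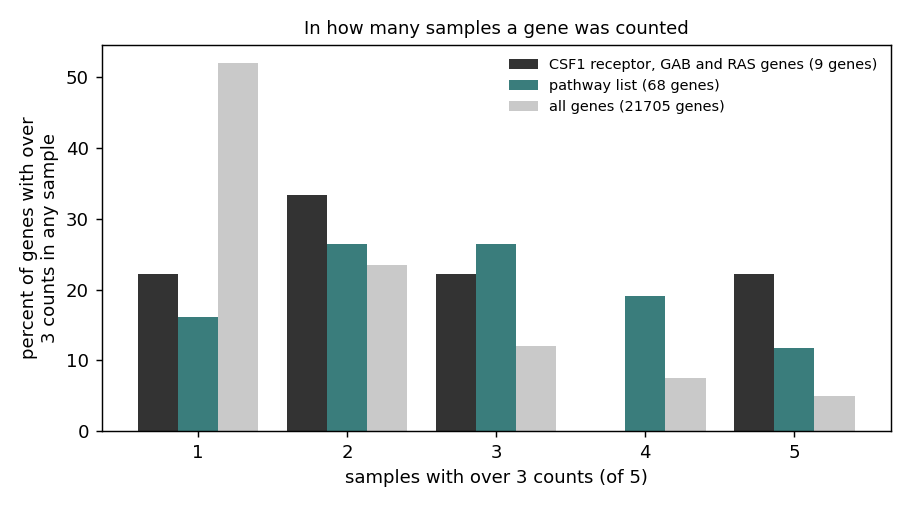
Percent of genes (y axis) that had more than 3 counts in 1, 2, 3, 4 or 5 samples (x axis), for the 9 genes, the pathway list and all genes with more than 3 counts in any sample. The first bin holds 52% of all genes, compared with 22.2% of the 9 genes and 16.2% of the pathway list.

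The filter on low counts kept 6 of the 9 genes for the fit across all genes (*Csf1r*, *Csf1*, *Gab3*, *Grb2*, *Nras* and *Hras*). The genotypes did not overlap for 2 of these, *Nras* higher and *Gab3* lower in the Zeb1∆M samples. Over all 7905 genes tested, 11.2% were without overlap, 6.68% higher and 4.54% lower in the Zeb1∆M samples. A gene with more than 3 counts in every Zeb1∆M sample and at most 3 in both Zeb1WT samples, like *Nras*, made up 2.54% (201 genes), and the opposite, like *Gab3*, 1.13% (89 genes). As *Nras* and *Gab3* were the reason for the choice, nothing is read from these counts. Leaving out a sample can only reduce overlap. Then 3 of the 6 genes were without overlap without Zeb1WT replicate 2 (*Grb2* added, next to 29.5% of all genes), Zeb1∆M replicate 1 (*Csf1r* added, 24.2%), Zeb1∆M replicate 2 (*Grb2* added, 22.5%) or Zeb1∆M replicate 3 (*Csf1* added, 20.5%), and 2 of the 6 without Zeb1WT replicate 1 (39.4%).

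The remaining genes of the route were read from the list of 72 genes, 53 of which were tested. None had an adjusted p under 0.05 by the quasi-likelihood test of edgeR (Benjamini-Hochberg over all genes tested) (0 of 53, and 0 at an unadjusted p under 0.05), next to 0% of all genes tested (0 of 7905, with 86 at an unadjusted p under 0.05). DESeq2 with default options called 3 of the 40 listed genes to which it assigned an adjusted p, next to 12.1% of all genes (790 of 6519). These 3 were *Fyn*, higher in the Zeb1∆M samples, and *Akt1* and *Mapk3*, lower. *Mapk3* (ERK1) rested on 2276 counts in Zeb1WT replicate 2, with 0 in the other four samples, and *Akt1* on 11097 counts in Zeb1WT replicate 1, with 0, 0, 0 and 5 in the others. Neither of these 2 passed the filter of the edgeR test. limma-voom with sample quality weights called 2 of the 53 genes, *Fyn* and *Spred1*, both higher, next to 2.96% of all genes (234 of 7905, 175 higher and 59 lower). *Spred1*, an inhibitor of RAS signalling, had 0 counts in both Zeb1WT samples and 0, 2855 and 1580 counts in the Zeb1∆M samples, so that the genotypes overlapped. The median log2 difference over the 53 genes was 0.53, next to 0.72 over all genes. Both medians were the same with genes at the floor in 1 genotype set to their fold against that floor (8 and 967 genes). Of the 53 genes, 32 (60.4%) were above 0, next to 60.9% of all genes.

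The genotypes were without overlap for 4 of the 53 genes (7.55%), a share not above the 11.2% of all genes tested. *Fyn*, a SRC family kinase, had 0 counts in both Zeb1WT samples and 20, 632 and 12989 counts in the Zeb1∆M samples. Against the highest Zeb1WT floor, its Zeb1∆M mean of 91.7 ± 145 CPM was 844-fold higher and its lowest Zeb1∆M sample 15.2-fold higher. That floor covers counting error only. *Tyrobp*, the ITAM adaptor DAP12 that works with CSF1R in macrophages, had 1623 and 1616 CPM in the Zeb1WT samples and 18955, 3083 and 2452 CPM in the Zeb1∆M samples, for a log2 difference of 2.33. Its highest value was in the sample that stood apart. *Lypla1*, a thioesterase that takes palmitate off RAS proteins, had 7 and 0 counts against 21, 7938 and 1220 counts. *Rasal3*, a RAS GTPase activating protein of leukocytes, had 35 and 1479 counts against 0, 0 and 6 counts and was the only one of the 4 that was lower. None of the 4 was called by edgeR (each adjusted p was 1). With RLE factors *Tyrobp* overlapped and *Dusp6*, a phosphatase that inactivates ERK, was lower without overlap (2 higher and 2 lower, next to 10.9% of all genes). With total counts 3 were higher and 3 lower, next to 11.7% of all genes, with *Dusp6* and *Pdpk1*, the kinase that activates AKT, joining the 4.

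Among the partners nearest to the receptor, *Ptpn11* (SHP2, the phosphatase docked on GAB proteins) had 0 and 0 counts in the Zeb1WT samples and 20, 463 and 0 counts in the Zeb1∆M samples. *Ptpn6* (SHP1, an inhibitory phosphatase) had 340 and 8643 counts against 5, 245 and 27443 counts. *Shc1*, an adaptor that links receptors to GRB2, had 1 and 305 counts against 15, 9842 and 4862 counts. All 3 overlapped between the genotypes and had an adjusted p of 1 by edgeR. The mean of *Ptpn6* was 132 ± 169 CPM in the Zeb1WT samples and 184 ± 314 CPM in the Zeb1∆M samples. The fitted log2 difference of *Ptpn6* was 0.48, whereas the difference of its mean log2 CPM was −2.28. *Shc1* had means of 4.44 ± 6.23 and 109 ± 115 CPM.

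Downstream of RAS, *Araf* had 0 and 3519 counts in the Zeb1WT samples and 5, 19399 and 1845 counts in the Zeb1∆M samples. *Braf* had 5883 counts in Zeb1∆M replicate 3 and 0 elsewhere. These RAF genes thus differed in which samples held them. *Map2k1* (MEK1) had 1336 and 587 counts against 15, 0 and 880, and *Map2k2* (MEK2) had 8 and 795 against 69, 0 and 0. Of the 11 genes listed for the RAF, MEK and ERK cascade, 9 were tested, 2 had a log2 difference above 0 (22.2%) and 7 below, and 0 were without overlap. Of the 15 tested genes listed next to the receptor, 13 were above 0 (86.7%) and 2 were without overlap. The shares over all genes were 60.9% above 0 and 11.2% without overlap, and edgeR called 0 genes in either list, as over all genes.

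The genes most like *Csf1r*, *Gab3* and *Nras* in pattern were found by the root mean square difference of log2 CPM over the 5 samples among the tested genes outside the lists. For *Csf1r* they were *Sec11c* (0.56), a subunit of the signal peptidase, *Pglyrp1* (0.59), a peptidoglycan recognition protein, and *Rassf4* (0.65), a protein with a RAS association domain. For *Gab3* they were *Ttc33* (0.79), *Mydgf* (0.81), a secreted growth factor of myeloid cells, and *Ola1* (0.92), an ATPase. *Mydgf* had 22922 and 5113 counts in the Zeb1WT samples and 0 in the Zeb1∆M samples. For *Nras* they were *Mrpl20* (0.91), of the mitochondrial ribosome, *Coa5* (1.01), an assembly factor of cytochrome c oxidase, and *Tet2* (1.08), which oxidizes methylated cytosine. *Coa5* had 0 and 0 counts against 81, 18847 and 6334 counts. These genes share the samples and their depth with the gene they resemble.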

How the data were processed

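Macrophages sorted from the aortas of 2 Zeb1WT/ApoeKO and 3 Zeb1∆M/ApoeKO samples were analysed, grouped by their titles in the labels. The authors mapped paired-end reads (75 bases) to GRCm38 with STAR (2.5.3a), quantified genes with RSEM (1.3.0) and GENCODE mouse release M25 (versions and build from the submitters' processing notes, annotation from the study's methods), and deposited expected counts, which are whole numbers in the table, neither normalized nor filtered. These estimates were used as deposited.

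The fit across genes used edgeR 4.0.16 under R 4.3.3 (filterByExpr with a minimum count of 10, TMM, quasi-likelihood test without covariates, Benjamini-Hochberg adjusted p under 0.05). The script of this test was tested on simulated data with far less spread between samples than these data have, which says nothing about how many changes it can find here. Log2 differences used a prior count of 2. The floor was 3 counts, and a fold against a genotype at or under it used the highest floor of its samples. DESeq2 1.42.0 (default options, the tool of the study) and limma 3.58.1 (voom with sample quality weights) were alternatives. TPM used the union of exons of GENCODE M21, which is also on GRCm38 and matched 55227 of 55487 identifiers without their version. Stretches of 75 bases were compared on its transcripts, on both strands.

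Named genes were the 9 genes, fixed partners (*Il34*, *Sos2*, *Shc1*, *Ptpn11*, *Ptpn6*, *Araf*, *Braf*, *Map2k1*, *Map2k2* and *Mapk3*; some others are not reported here), listed genes without overlap, and the 3 nearest genes in pattern. Genes called by DESeq2 or limma-voom, genes without overlap only under another scaling, and genes that overlap the 9 were named after their values were seen. The genes, lists and tests were chosen with earlier results of these data known. *Lyz2* had 13335 to 22555 CPM, and *Apoe* had 48 and 31 counts in the Zeb1WT samples and 86, 0 and 4 in the Zeb1∆M samples. Python 3.11.15 and matplotlib 3.10.9 were used for tables and figures.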

Additional observations from a re-analysis of the deposited data

How the results depend on the processing

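The number of genes called was 0 under RLE and upper-quartile factors, both other filters (1 count over all samples, or 10 in each), the replicate block, and without each sample in turn (lowest 0, highest 0), both over all genes and over the pathway list. Leaving out a Zeb1WT sample assumes that the other varies like the Zeb1∆M samples. DESeq2 called 790 genes and limma-voom with sample quality weights 234, of which 3 and 2 were on the pathway list, and the cause was not tested. Replicates 1 and 2 exist for either genotype, and replicate 1 minus 2 correlated between genotypes at 0.18 across genes. With only 2 pairs the samples share no more than a number. Under the block 7 genes had an unadjusted p under 0.05, against 86 without it.

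The log2 differences of *Csf1* and *Grb2* kept their sign under 11 alternatives; those of *Nras* and *Gab3*, at 0 in one genotype, could not turn. The sign of *Csf1r* turned with upper-quartile factors (−0.14) and the block (−0.94), and that of *Hras* with upper-quartile factors (−0.14), total counts (−0.22) and without Zeb1WT replicate 2 (−0.38). The median over all genes was 0.72 with TMM, 1.18 with RLE, 0.29 with upper-quartile factors, 0.11 with total counts, −0.30 with limma-voom and 3.56 with DESeq2 (genes not filtered), and, each over its own tested genes, 2.87 and 2.83 without Zeb1WT replicate 1 or 2. The differences are to be read against it. The number of genes without overlap was 1398 of 27091 with at least 1 count as the filter, next to 887 of 7905 with the main filter. It rises by construction with fewer samples. In alternatives chosen after seeing the data it was 3116 (39.4%) without Zeb1WT replicate 1, 2335 without Zeb1WT replicate 2, and 1913, 1776 and 1624 without Zeb1∆M replicates 1, 2 and 3. On the pathway list it was 20, 16, 12, 11 and 11 in the same order, and among the 9 genes 2 to 3. Low counts limit what can be read of *Gab1*, *Gab2*, *Hras* and *Csf1*, which had at most 292 counts in any sample.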
